A study of Homo sapiens with 4 samples.

Results

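Transcripts of mitotic spindle and cytokinesis proteins that are not motors, and of 6 other cell cycle genes, were followed after 3 h of clofarabine in K562. K562 is an established line from a human myeloid leukaemia that keeps erythroid traits. The 34 genes, of 23615 in the deposited table, were taken by name from a list drawn up by function, and all 34 were found. The list was headed as proteins of spindle microtubules and the cleavage furrow, without the kinesins. Here 19 were grouped as spindle proteins, 9 as midzone, furrow and midbody proteins and 6 as other cell cycle transcripts. Counts, medians and sums over the 34 include these 6, whose median log2 fold change (-0.58) was the lowest of the groups. The list was chosen by function with the log2 fold changes of this same comparison in view, so the values of its members are a description and no p-value is given for them. RNA-seq libraries came from 2 samples given 5 µM clofarabine in 0.005% DMSO (C0 and C1) and 2 samples given DMSO, the solvent (V0 and V1), all collected at 3 h. Clofarabine is a purine nucleoside drug that, once phosphorylated, blocks DNA synthesis and the enzyme that makes deoxynucleotides. Conditions are headed C and V in the table. C was taken as clofarabine and V as vehicle, and with the letters swapped each direction would turn. Nothing in the labels ties the samples to separate cultures, so the errors and p-values measure only the spread among these samples, and that spread may be technical.

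The libraries held between 8370550 and 23888755 estimated fragments, with V0 the shallowest and C1 the deepest. Of the pairs of libraries compared, none agreed within sampling noise. Chi-square over its degrees of freedom was 6.55 between C0 and C1, 2.73 between V0 and V1 and 4.08 between C0 and V0. This ratio grows with depth, so the pairs are not ranked by it, and the other pairs were not compared. Each library was therefore counted as a sample, though preparations repeated from a single culture could differ as much. All 10 markers of the erythroid lineage that were checked, the globin genes HBG1 and HBE1 and the factor GATA1 among them, stood above 1 CPM in every library (CPM are counts of fragments scaled by library size, with TMM factors for the members and by plain totals for these markers). Of 13 markers of other cells, 5 stood at 1 CPM or more in every library (EPCAM, CD3D, CD3G, LYZ and COL1A2), and MS4A1 and KRT5 were at 0 in every library. COL1A2, a fibroblast collagen, stood at 10.8 and 11.6 CPM in C0 and C1 and at 15.1 and 16.1 in V0 and V1, and its part in the results was not tested. The summed level of the 13 was 113 and 112 CPM in C0 and C1 and 120 and 112 in V0 and V1, most of it from EPCAM, at 70.7 to 75.7 CPM.

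Before division the cell builds a bipolar spindle from microtubules, which proteins at the poles, along the fibres and at the plus ends nucleate, bundle and stabilise. After the chromosomes separate, antiparallel microtubules at the midzone recruit a RhoA-activating complex that places the contractile ring, and the midbody is then cut. Many of the genes are transcribed mainly in G2 and mitosis, under the DREAM and MuvB complexes with B-MYB and FOXM1, which act at a promoter element named CHR, often beside CCAAT boxes bound by NF-Y. In bulk RNA, fewer cells in G2 and mitosis and less of these transcripts per cell cannot be told apart.

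After 3 h of clofarabine 18 of the 34 transcripts fell, none rose and 16 were not called. A gene was called when edgeR's quasi-likelihood test across all 11761 genes tested gave a Benjamini-Hochberg adjusted p under 0.05. By that rule 1.03% of all genes were called lower and 1.54% higher. Since the members were chosen with this comparison known, nothing is read from their share. All 34 passed the filter on low counts, with 70 to 16363 fragments per library. A log2 fold change of -0.5 or less was seen in 11 members, and in 3.26% of all genes tested. GTSE1, DEPDC1, PSRC1 and CDCA2 stood lowest against DMSO, at 46.8% to 53.7% of its level. The median log2 fold change was -0.31 over the members and 0.0020 over all genes tested, and 31 members had a negative value, as did 49.4% of all genes. DESeq2 and limma-voom also called no member higher, and 1 member had a positive value with an unadjusted p under 0.05. The number called lower was 8 and 9 on the log2(FPKM + 1) and log2(FPKM + 0.1) scales, where FPKM is the fragment count scaled by transcript length and library depth. On these scales 0.315% and 0.383% of all genes tested were called lower. Some members also lost their call as single libraries were left out. ASPM, ECT2, ANLN and ARHGAP11A were among those not called on either FPKM scale.

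In 30 members both clofarabine libraries lay below both DMSO libraries, and in STMN1 and MAPRE1 both lay above, while TACC1 and CLASP2 overlapped. Over all genes tested these shares were 21.3% below and 22% above. The 2 libraries of a group lay close together, with a median absolute log2 difference of 0.075 between C0 and C1 and 0.089 between V0 and V1 over the members. The widest gaps were those of TROAP in clofarabine (0.35) and FAM64A in DMSO (0.30). Summed over the 34 genes, the transcripts took up 3712 CPM in C0 and 3806 in C1, against 4429 in V0 and 4377 in V1. The sums of the 2 groups did not overlap.

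**Figure D1:**
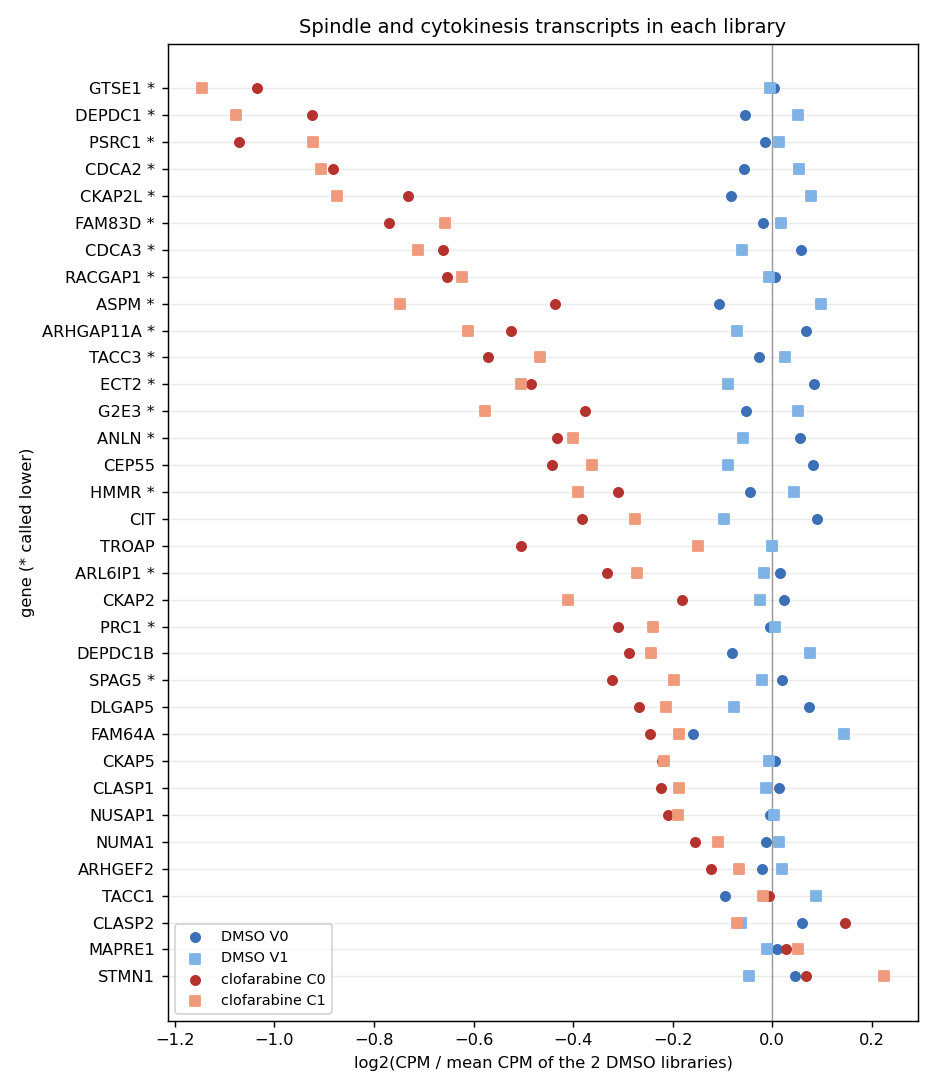
Level of each of the 34 transcripts in the 4 libraries, as log2 of CPM over the mean CPM of the 2 DMSO libraries; rows run from the lowest log2 fold change to the highest, circles are V0 and C0, squares V1 and C1, and an asterisk marks the 18 genes called lower. The red clofarabine points lie left of the blue DMSO points in 30 rows, from GTSE1 at the top to ARHGEF2, and to the right in MAPRE1 and STMN1 at the bottom.

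The choice of genes used no promoter sequence, though the motifs searched were picked with earlier results of these data known. RefSeq windows of 250 bases before to 50 after an annotated start (GRCh38.p14) were at hand for 28 of the 34 genes, matched by current symbol. CDCA2, FAM83D and RACGAP1, called lower, and TROAP, FAM64A and TACC1, not called, had no window. They were searched on both strands for the CHR letters TTTGAA or TTTAAA, for CCAAT, and for the E2F core letters. The form TTCCCGC of that core was counted together with the variant TTGGCGC, the variant TTCGCGC and the variant TTGCCGC. A CHR match within 100 bases before to 50 after a start was found in 20 of 28 members (71.4%), against 11.2% of all 35116 windows and 9.46% of the 8639 tested genes with a window under the same symbol. A CCAAT match in the same stretch was found in 19 of 28 (67.9%), against 21.3% of all windows and 29.3% of tested genes. Among all genes called lower, members included, the shares were 42.9% for CHR and 49% for CCAAT. Both kinds together were found in 15 of 28 (53.6%), against 3.88% of tested genes. Within the members the CHR letters stood in 11 of 15 members called lower (73.3%, 95% Wilson interval 48% to 89.1%) and 9 of 13 not called (69.2%, 42.4% to 87.3%), and the 2 intervals overlap widely. E2F core letters stood in the same stretch of 6 of 28 members (21.4%), against 7.2% of all windows and 14.6% of tested genes. In the whole window the shares of members and of tested genes were 71.4% and 20.8% for CHR, 78.6% and 43.8% for CCAAT, and 28.6% and 25.7% for the E2F core. ARHGAP11A, TACC3 and CKAP2 held none of these letters. A gene with several listed starts was counted once if any of them held the letters, and which start K562 cells use was not tested. A match shows only that the letters are there.

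**Figure D2:**
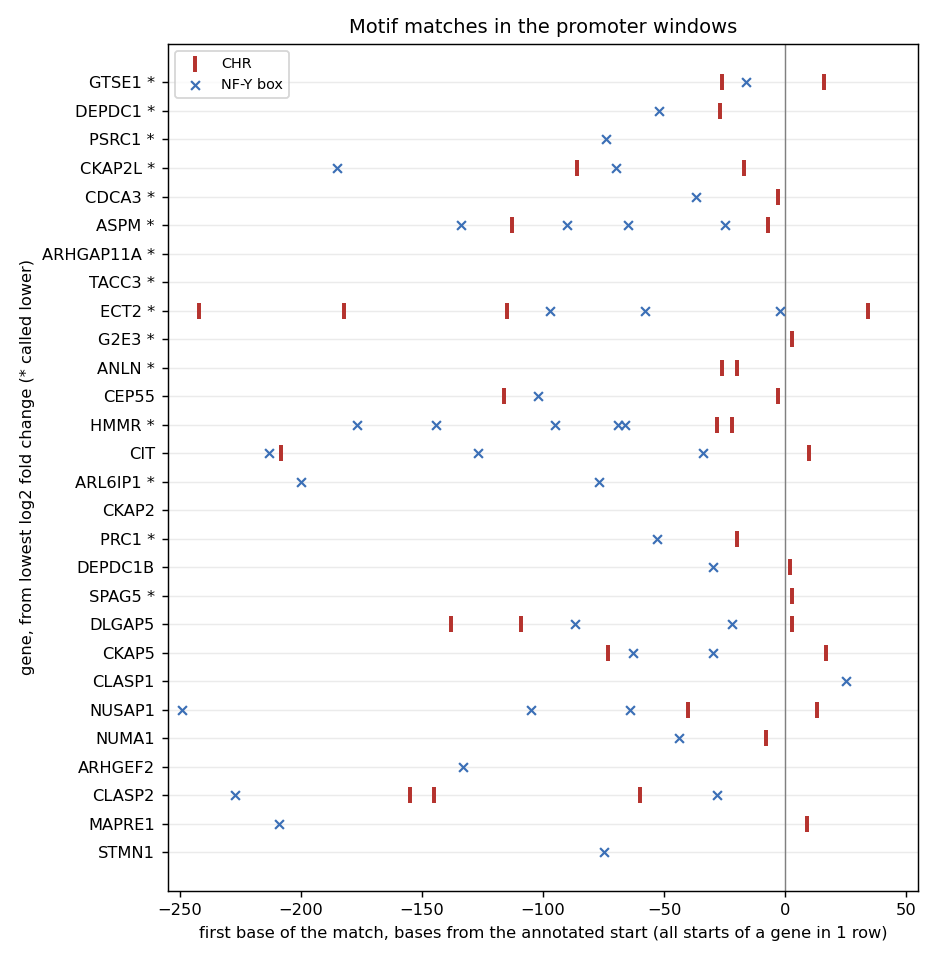
Position of each CHR match (red bars) and each CCAAT match (blue crosses, the box bound by NF-Y) in the promoter windows of the 28 matched members, in bases from the annotated start at 0; rows run from the lowest log2 fold change to the highest and an asterisk marks genes called lower. Most CHR bars stand close to the start in rows with and without an asterisk, and PSRC1, ARHGAP11A, TACC3 and ARL6IP1 were called lower with no bar. Bars mark only TTTGAA and TTTAAA, and other forms of the element were not searched.

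Stretches of 9 promoters are shown, from 100 bases before the annotated start to 20 after, to set promoters of strongly lower members beside those of members that were not called. They belong to the 6 called members of lowest log2 fold change with a single listed start, and then, of the members not called that have a single listed start, to the 3 with a log2 fold change nearest to 0. Among the called members CDCA2, FAM83D and RACGAP1 lay lower than ASPM but have no entry. TACC1, CLASP2 and ARHGEF2 lay nearer to 0 than NUMA1 but have no entry or several starts. CHR and CCAAT letters, or their reverse complements TTCAAA and ATTGG, are in capitals where they lie wholly inside the stretch. On GRCh38.p14 the stretches lie at chr22:46296770-46296889 on the plus strand for GTSE1, chr1:68497063-68497182 on the minus strand for DEPDC1 and chr1:109283126-109283245 on the minus strand for PSRC1. Those of CKAP2L, CDCA3 and ASPM lie on the minus strand at chr2:112764590-112764709, chr12:6851267-6851386 and chr1:197146650-197146769. Those of members not called lie at chr20:32819854-32819973 on the plus strand for MAPRE1, chr11:72080523-72080642 on the minus strand for NUMA1 and chr15:41332781-41332900 on the plus strand for NUSAP1.
GTSE1: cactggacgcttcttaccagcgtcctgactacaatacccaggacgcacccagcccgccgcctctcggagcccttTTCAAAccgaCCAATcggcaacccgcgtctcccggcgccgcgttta
DEPDC1: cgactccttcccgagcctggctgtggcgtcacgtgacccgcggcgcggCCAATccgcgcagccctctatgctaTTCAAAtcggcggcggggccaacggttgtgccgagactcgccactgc
PSRC1: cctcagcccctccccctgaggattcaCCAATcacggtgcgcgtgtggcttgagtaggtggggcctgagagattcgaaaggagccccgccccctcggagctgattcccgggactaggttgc
CKAP2L: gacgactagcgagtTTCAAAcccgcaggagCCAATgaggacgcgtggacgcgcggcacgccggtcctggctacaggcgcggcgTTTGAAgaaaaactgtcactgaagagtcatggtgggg
CDCA3: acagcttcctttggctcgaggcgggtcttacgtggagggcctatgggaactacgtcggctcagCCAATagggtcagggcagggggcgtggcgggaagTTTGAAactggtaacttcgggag
ASPM: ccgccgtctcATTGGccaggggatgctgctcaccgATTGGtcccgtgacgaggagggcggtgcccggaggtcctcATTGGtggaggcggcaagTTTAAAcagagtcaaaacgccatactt
MAPRE1: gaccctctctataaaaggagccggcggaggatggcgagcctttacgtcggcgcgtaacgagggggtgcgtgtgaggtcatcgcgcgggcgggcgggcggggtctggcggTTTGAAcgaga
NUMA1: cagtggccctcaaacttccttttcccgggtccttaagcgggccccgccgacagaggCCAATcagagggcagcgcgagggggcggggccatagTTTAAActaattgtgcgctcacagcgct
NUSAP1: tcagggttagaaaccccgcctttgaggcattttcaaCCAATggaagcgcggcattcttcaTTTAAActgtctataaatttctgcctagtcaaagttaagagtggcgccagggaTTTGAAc

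In DEPDC1 the CCAAT letters begin 52 bases and the CHR letters 27 bases before the start, and in CDCA3 the CCAAT letters begin 37 bases before it and the CHR letters span it. PSRC1, whose transcript stood at 50.4% of its DMSO level, holds CCAAT but neither TTTGAA nor TTTAAA in its window. Its stretch does hold TTCGAA after the CCAAT letters, a near form of TTTGAA that was not searched for. Whether PSRC1 lacks a CHR is therefore not settled by this search. NUMA1, at 91.3% and not called, holds both, with CCAAT 44 bases and CHR 8 bases before the start.

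Of the 19 spindle proteins 8 fell, none rose and 11 were not called, with a median log2 fold change of -0.26. The share called lower over all genes tested was 1.03%. GTSE1, a protein of growing microtubule ends that is made in G2 and mitosis, stood at 37.9 and 37.7 CPM in V0 and V1 and at 18.5 and 17.1 in C0 and C1 (log2 fold change -1.09, SE 0.12). PSRC1, which brings a microtubule-depolymerising kinesin to the spindle, stood at 61.3 and 62.5 CPM in DMSO and 29.5 and 32.7 in clofarabine (-0.99, SE 0.094). In both genes the groups stood far apart beside the small gaps within each group. FAM83D, which anchors a casein kinase to the spindle, stood at 37.1 and 38.0 CPM in DMSO and 22.0 and 23.8 in clofarabine (-0.71, SE 0.11). ASPM, which focuses microtubule minus ends at the poles, spread most among the called spindle genes. It stood at 119 and 137 CPM in V0 and V1 and at 94.6 and 76.2 in C0 and C1 (-0.60, SE 0.092), and its log2 fold change ran from -0.75 to -0.44 as each library was left out. HMMR, a spindle pole protein also known as the hyaluronan receptor RHAMM, fell by 0.35 on the log2 scale (SE 0.073), and SPAG5, or astrin, a protein of spindle fibres and kinetochores, by 0.26 (SE 0.069). The call of HMMR was lost without V1 and on both FPKM scales. SPAG5 was called under only 7 of 17 alternatives, its call being lost without C0, without V0, without V1, with DESeq2, with limma-voom, with upper-quartile scaling, at equal depth, at an adjusted p under 0.01 and on both FPKM scales.

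The remaining spindle proteins without a call, apart from the related genes described further on, were DLGAP5, TROAP, NUSAP1, CKAP5, NUMA1, MAPRE1 and STMN1. DLGAP5, or HURP, which stabilises kinetochore fibres, had a log2 fold change of -0.24 (SE 0.080) and NUSAP1, a microtubule bundler, one of -0.20 (SE 0.065). CKAP5, the microtubule polymerase ch-TOG, stood at 327 and 324 CPM in DMSO and 279 and 280 in clofarabine (-0.22, SE 0.064), and it was called lower without C0 and without C1. Its libraries lay close together in each group and the groups did not overlap, at a smaller fold than in any called member. TROAP, or tastin, stood at 38.7 CPM in both DMSO libraries and at 27.3 in C0 and 34.9 in C1 (-0.30, SE 0.12). Its value moved with the library left out: it was -0.51 without C1, where it was called lower, -0.15 without C0 and -0.076 on log2(FPKM + 1), and the FPKM of C1 (43.5) lay above those of V0 (41.0) and V1 (37.2). NUMA1, which tethers microtubules at the poles and the cortex, had a log2 fold change of -0.13 (95% interval -0.28 to 0.022).

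MAPRE1, the end-binding protein EB1, and STMN1, or stathmin, which sequesters tubulin, had the highest levels per length among the spindle members, and both had positive values. MAPRE1 stood at 424 and 417 CPM in DMSO and 429 and 436 in clofarabine (log2 fold change 0.040, 95% interval -0.093 to 0.17), so that a fall of the size seen in GTSE1 lies outside its interval. STMN1 stood at 625 and 586 CPM in DMSO and 635 and 708 in clofarabine (0.15, SE 0.071). It was not called, and was called higher without C0, where the rise rests on C1 alone (0.23, against 0.066 without C1).

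Of the 9 proteins of the midzone, furrow and midbody 5 fell, none rose and 4 were not called. All 9 had both clofarabine libraries below both DMSO libraries, and the median log2 fold change was -0.39. Of all genes tested 21.3% lay below in this way and 1.03% were called lower. RACGAP1, the GTPase-activating subunit of centralspindlin, stood at 164 and 163 CPM in DMSO and 104 and 106 in clofarabine (log2 fold change -0.64, SE 0.069). ECT2, the exchange factor that centralspindlin recruits to activate RhoA, stood at 77.8 and 69.0 CPM in DMSO and 52.5 and 51.8 in clofarabine (-0.49, SE 0.086). ARHGAP11A, a GTPase-activating protein for RhoA, stood at 135 and 123 CPM in DMSO and 89.6 and 84.4 in clofarabine (-0.57, SE 0.076). In these 3 genes every clofarabine library stood below both DMSO libraries. ANLN, or anillin, a scaffold of the contractile ring, fell by 0.41 (SE 0.076), and PRC1, which crosslinks midzone microtubules, by 0.27 (SE 0.066). The call of PRC1 was lost without V0, without V1, with DESeq2, at equal depth, at an adjusted p under 0.01 and on both FPKM scales.

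CEP55, which recruits the abscission machinery to the midbody, had a log2 fold change of -0.39 (SE 0.13), and CIT, citron kinase of the midbody, one of -0.32 (SE 0.11). Neither was called, at 18.0 to 25.9 CPM for CEP55 and 30.4 to 42.2 for CIT. DEPDC1B, also without a call, is described with its relative. ARHGEF2, the microtubule-bound RhoA exchange factor GEF-H1, had a value of -0.094 (95% interval -0.26 to 0.067). ARHGAP11A shares sequence with ARHGAP11B, a partial copy given in the table with 23 to 65 fragments per library, so how its fragments were divided is uncertain.

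Among the 6 other cell cycle transcripts 5 fell and FAM64A was not called, with a median log2 fold change of -0.58, where 1.03% of all genes were called lower. CDCA2, or Repo-Man, which brings protein phosphatase 1 to chromatin at anaphase, stood at 77.1 and 83.2 CPM in DMSO and 43.5 and 42.8 in clofarabine (-0.90, SE 0.084). CDCA3, a protein linked to entry into mitosis, stood at 34 and 31.3 CPM in DMSO and 20.7 and 19.9 in clofarabine (-0.69, SE 0.12). In both, the groups stood well apart beside the gap within each group. G2E3, a ubiquitin ligase named for its expression in G2 and mitosis, fell by 0.48 (SE 0.105), a call lost without C1, without V1, at an adjusted p under 0.01 and on both FPKM scales. ARL6IP1, a membrane protein that shapes the endoplasmic reticulum, stood at 449 and 439 CPM in DMSO and 353 and 368 in clofarabine (-0.30, SE 0.065), and its call was lost without V0, without V1, at an adjusted p under 0.01 and on both FPKM scales. FAM64A, now named PIMREG, had the fewest fragments, at 7.76 to 10.2 CPM, with a log2 fold change of -0.22 (95% interval -0.62 to 0.18) that was -0.35 without V0 and -0.060 without V1.

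**Figure D3:**
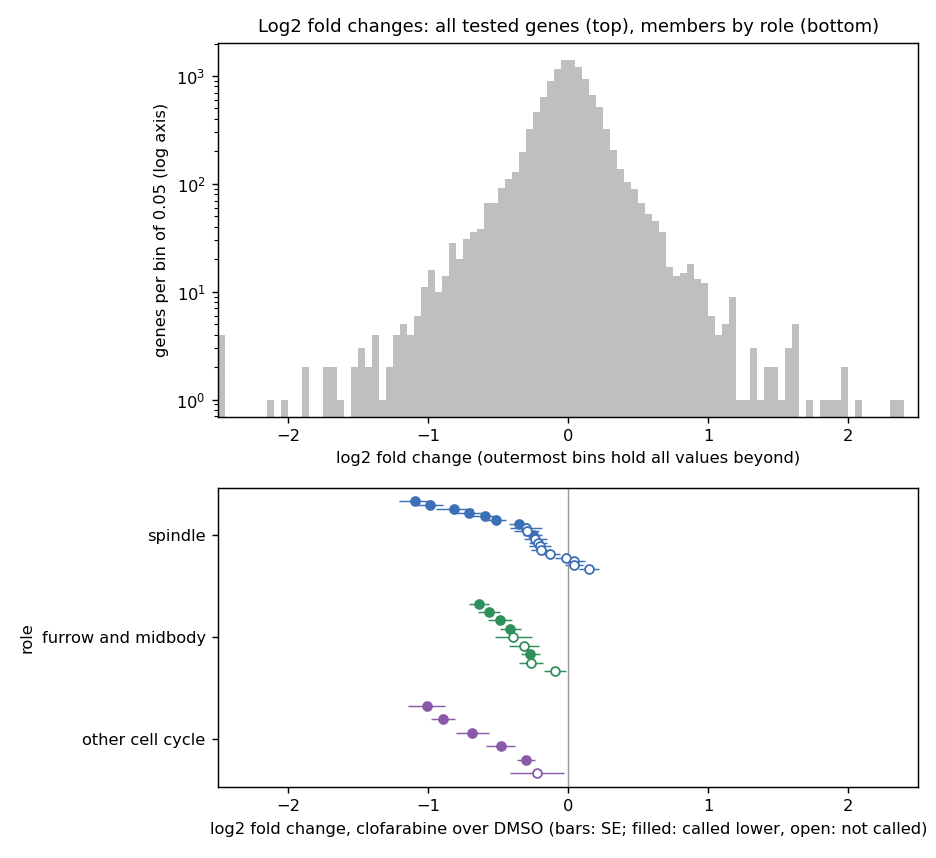
Top, the number of genes per bin of log2 fold change over all 11761 genes tested, on a log axis; bottom, the log2 fold change and SE of each member by role, filled where called lower. The members reach from -1.09 (GTSE1) to 0.15 (STMN1), and the furrow and midbody proteins all lie left of 0.

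The list held 4 pairs of related genes. In the pairs of DEPDC1, TACC3 and CKAP2L the 2 members gave unlike values, while the 95% intervals of CLASP1 and CLASP2 overlapped. DEPDC1, a DEP-domain protein of mitotic cells, stood at 27.4 and 29.5 CPM in DMSO and 15.0 and 13.5 in clofarabine (log2 fold change -1.01, SE 0.13). Its relative DEPDC1B, which carries a RhoGAP-like domain, stood at 59.1 and 65.8 CPM in DMSO and 51.2 and 52.8 in clofarabine (-0.27, SE 0.087) and was not called. The log2 ratio of DEPDC1 to DEPDC1B was -1.10 and -1.15 in V0 and V1 and -1.76 and -1.96 in C0 and C1. DEPDC1 thus stood lower relative to DEPDC1B in both clofarabine libraries, by 0.73 on the log2 scale.

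TACC3, which with CKAP5 and clathrin crosslinks kinetochore fibres, stood at 150 and 156 CPM in DMSO and 103 and 111 in clofarabine (log2 fold change -0.52, SE 0.071). TACC1, of the same family, stood at 76.9 and 87.3 CPM in DMSO and 81.7 and 81.1 in clofarabine (-0.017, 95% interval -0.185 to 0.15), so that its groups overlapped. The sign of TACC1 turned after a length trend had been taken out (0.0090), with libraries thinned to equal depth (0.016) and without V1 (0.075). The log2 ratio of TACC3 to TACC1 was 0.96 and 0.83 in DMSO and 0.33 and 0.45 in clofarabine.

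CKAP2L, a spindle protein of dividing progenitors, stood at 25.8 and 28.8 CPM in DMSO and 16.4 and 14.9 in clofarabine (log2 fold change -0.81, SE 0.13). CKAP2, its relative, which binds and stabilises microtubules, stood at 80.1 and 77.3 CPM in DMSO and 69.4 and 59.2 in clofarabine (-0.30, SE 0.087). CKAP2 was not called with all 4 libraries and was called lower without C0 (-0.41), while without C1 the value was -0.18. CLASP1, a protein that promotes microtubule rescue, stood at 75.1 and 73.8 CPM in DMSO and 63.8 and 65.4 in clofarabine (-0.20, SE 0.080). CLASP2 stood at 105 and 96.2 CPM in DMSO and 111 and 95.6 in clofarabine (0.039, 95% interval -0.13 to 0.21), and its sign turned without C0 (-0.067) and without V1 (-0.029). Neither CLASP gene was called, and the interval of CLASP1 (-0.37 to -0.038) overlapped that of CLASP2. The log2 ratio of CLASP1 to CLASP2 had an SD of 0.18 in clofarabine and 0.067 in DMSO. With the gene of lower fold change written first, which fixes the sign, the log2 ratio differed between clofarabine and DMSO by -0.51 for TACC3 to TACC1, -0.50 for CKAP2L to CKAP2 and -0.24 for CLASP1 to CLASP2. These pairs were chosen with results known, and the differences were not tested.

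**Figure D4:**
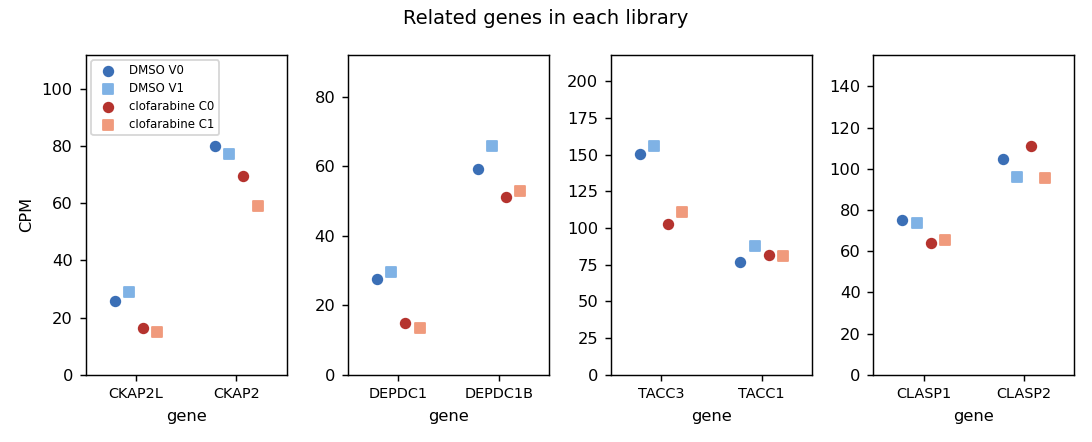
CPM of the 4 pairs of related genes in each library, with 1 panel a pair and axes from 0; circles are V0 and C0, squares V1 and C1. In DEPDC1, TACC3 and CKAP2L the clofarabine points lie well below the DMSO points, while those of TACC1 and CLASP2 overlap.

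Levels per length spanned 2 orders of magnitude. In DMSO the highest mean FPKM was that of STMN1 (453 ± 22.3, SD, n = 2), followed by ARL6IP1 (209.7 ± 3.995) and MAPRE1 (169 ± 2.31), and the lowest were those of DEPDC1 (5.93 ± 0.224) and CIT (4.54 ± 0.430). The step from STMN1 to ARL6IP1 and that from ARL6IP1 to MAPRE1 were wider than the spread between libraries. Further down the order many neighbours lay within it, such as SPAG5 (49.3 ± 1.13) and CKAP5 (48.7 ± 0.427). On the mean of the 4 libraries, members called lower had a median of 78.5 CPM and members not called one of 80.6. The median transcript length that the FPKM values imply in these groups was 3145 and 3274 bases, beside 2735 over all genes tested.

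**Figure D5:**
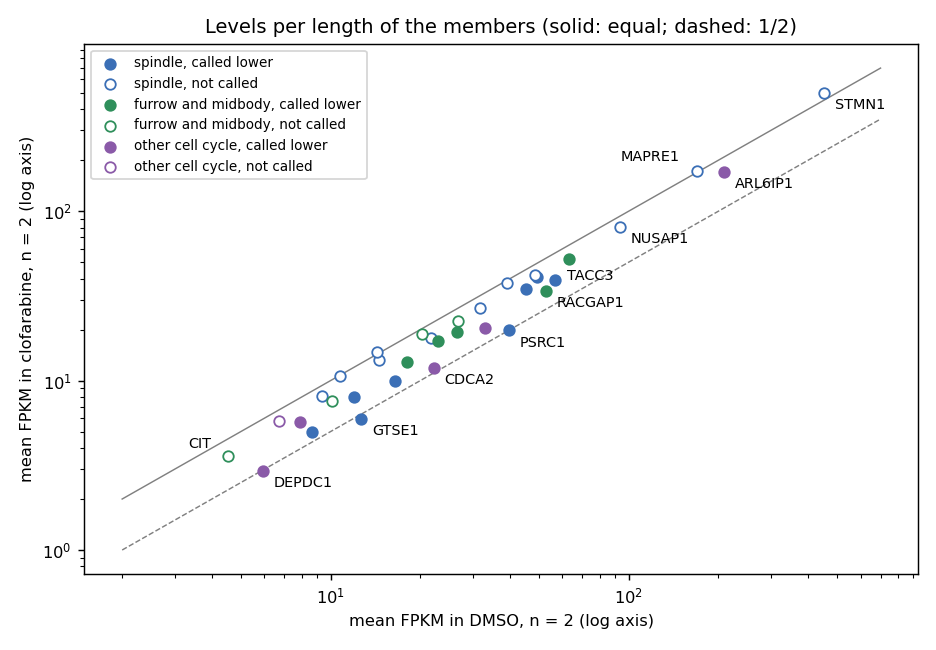
Mean FPKM of each member in clofarabine against DMSO (n = 2 each, both axes log), filled where called lower; the solid line marks equal levels and the dashed line a level of 1/2. GTSE1, PSRC1, CDCA2 and DEPDC1 lie at or near the dashed line, and STMN1 and MAPRE1, at the top of the range, on the solid line.

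Genes of the same processes outside the list were set beside it. Of 60 such genes, none of them a kinesin, 58 could be tested, of which 2 fell, 1 rose and 55 were not called, so that 5.17% were called beside 2.57% of all genes tested. Their median log2 fold change was 0.029. Both falls were among 26 further proteins of spindle microtubules and poles. TPX2, which activates Aurora A and nucleates microtubules around chromosomes, stood at 394 and 404 CPM in DMSO and 295 and 301 in clofarabine (log2 fold change -0.42, SE 0.064, edgeR adjusted p = 0.000373). KNSTRN, the partner of SPAG5, stood at 55.7 and 57.7 CPM in DMSO and 40.2 and 43.2 in clofarabine (-0.44, SE 0.090, edgeR adjusted p = 0.00725). In both genes the groups did not overlap. The call of KNSTRN was lost without V1 (edgeR adjusted p = 0.0805) and on log2(FPKM + 1) (0.0526), and over the alternatives its adjusted p ran from 2.41e-05 to 0.0805.

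The rise was among 18 genes of abscission. CHMP5, a subunit of the ESCRT-III complex that cuts membranes, stood at 65.0 and 58.3 CPM in DMSO and 78.1 and 77.4 in clofarabine (log2 fold change 0.34, SE 0.083, edgeR adjusted p = 0.0296). Its call was lost without V1 (edgeR adjusted p = 0.574), with DESeq2 (0.121), at equal depth (0.0791), on log2(FPKM + 1) (0.15), on log2(FPKM + 0.1) (0.141) and at an adjusted p under 0.01, and over the alternatives its adjusted p ran from 0.000544 to 0.574. The 14 genes of the contractile ring, such as RHOA, MYH9 and the septins, held no call by edgeR, DESeq2 or limma-voom. Their median log2 fold change was 0.041. The 3 at an unadjusted p under 0.05 in edgeR were MYL12A, SEPT7 and MYL12B, all with positive values (0.18, 0.20 and 0.16). SEPT7 had a failed status in the authors' quantification and was still tested. Among all 58 genes 6 were called without C0 and 1 without V1.

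Exons of 16 members overlap those of another gene in a GENCODE annotation of GRCh38, in 14 of them on the opposite strand. The counts were made on hg19. No source used here says whether the counting used strand, so fragments of such neighbours may be shared. PRC1 shares 2716 exonic bases, NUSAP1 1787 and ARL6IP1 546 with another protein-coding gene model on the same strand, where strand does not separate them. On the opposite strand NUMA1 shares up to 2432, ARHGAP11A up to 979 and SPAG5 384. CDCA3 shares 329 exonic bases with GNB3 on the opposite strand, RACGAP1 shares 137 with AQP6 and DEPDC1 shares 303 with an antisense RNA.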

How the data were processed

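Per the labels' protocols, directional libraries were prepared from total RNA. Per the submitters' processing notes, the authors used cutadapt 1.5, TopHat2 2.0.13 and Cuffdiff 2.2.1 on hg19, with an annotation and strand setting not given in the sources used here. The deposited table gives estimated counts of fragments per gene and library, the authors' scaled fragments (a signal, each library's counts scaled by a single factor) and FPKM values that the authors computed. Estimated counts were rounded, filtered with edgeR's filterByExpr (minimum count 10), scaled by TMM and tested with edgeR 4.0.16 (R 4.3.3), group being the only term; 11761 of 23615 genes were tested. SE is the log2 fold change over the square root of F, and intervals are at 95%. Library totals ran from 8370550 to 23888755 fragments, and intervals cover these samples only.

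The members, the lists of other genes and the motifs were chosen with earlier results of these data known. Library values are given for the 12 called members of largest log2 fold change and 4 pairs of related genes, and for others where a sentence turns on them. Of the other cell division genes, up to 3 called per direction by smallest p were named. Which library is which labelled replicate is not given. The alternatives were other scalings, filters and thresholds, DESeq2 1.42.0, limma 3.58.1 (voom, and FPKM with pseudocounts of 1 and 0.1), a replicate block, removal of a length trend (loess, span 0.3), equal depth, and leaving out each library, with the sample left alone taken to vary as the opposite group does. The procedure was tested on simulated counts of the 11761 genes, with changes given to a small part of them, none of very low level. There edgeR called 98.5% of 66 genes changed 2-fold and 52.2% of 67 changed 1.3-fold, with 7 false calls. DESeq2 called 95.5% and 26.9% of the same genes, with 1 false call. Every simulated gene had the same spread beyond sampling noise (a coefficient of variation of 6.01%), so for real genes the shares may be lower.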

Additional observations from a re-analysis of the deposited data

How the results depend on the processing

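Over 17 alternatives, 8 members (GTSE1, PSRC1, TACC3, FAM83D, RACGAP1, DEPDC1, CDCA2 and CDCA3) were called lower under each, and 13 without each library in turn. The 18 members called lower became 8 on log2(FPKM + 1) and 9 on log2(FPKM + 0.1), with the call of CKAP2L lost only on the first. The share of all genes called lower, 1.03% as reported, was 0.315% and 0.383% on these scales. Some members not called were called lower under other settings. NUSAP1, CKAP2 and CKAP5 were so with library sizes alone, and CKAP2 and CKAP5 with no filter. With the length trend removed these were NUSAP1, CKAP2, CKAP5, TROAP and DEPDC1B. Over all genes tested 1.7% were called lower with library sizes alone, 1.07% with no filter and 1.81% with the length trend removed. STMN1 made the members called higher range from 0 to 1 as libraries were left out (1 without C0). The median of the members was -0.35 with library sizes alone and -0.33 at equal depth, and ran from -0.36 (without C1) to -0.31 (without C0). All genes called numbered 302 as reported, 478 with no filter, 168 with DESeq2, 56 on log2(FPKM + 1), 72 on log2(FPKM + 0.1), 128 at an adjusted p under 0.01 and 519 with the length trend removed, and from 130 (without V1) to 636 (without C0). Rises made up 59.9% of these 302 calls, 45.9% with library sizes alone, 33.9% on log2(FPKM + 1) and 71.4% without C0. The other cell division genes called numbered 5 with no filter, 1 on log2(FPKM + 1) and 5 with the length trend removed, and 1 to 6 without a library. TACC1 turned to 0.0090 with the length trend removed and 0.016 at equal depth, and ran from -0.10 (without V0) to 0.075 (without V1); CLASP2 ran from -0.067 (without C0) to 0.15 (without C1). The causes were not tested.

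The table's replicate numbers are not said to pair samples, and the same-numbered libraries did not deviate together (r = -0.0038 over 11761 genes). With the number as a replicate block 796 genes were called, 62.1% of them higher, and 2.57% of all genes tested were called lower. Under that setting 26 members were lower and 7 other cell division genes were called. The 8 members gained were NUSAP1, DLGAP5, CKAP2, CKAP5, TROAP, CEP55, CIT and DEPDC1B. At 70 to 187 fragments, depth limits FAM64A most.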
